A study of Mus musculus with 14 samples.

Results

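The tumour necrosis factor (TNF) superfamily was followed in mouse liver through its numbered ligand (Tnfsf) and receptor (Tnfrsf) genes. Members were all probe sets whose annotated symbol starts with Tnfsf or Tnfrsf followed by a digit. The brightest probe set by its mean over all arrays stood for each symbol. This gave 29 members, 9 ligands and 20 receptors, of 19505 symbols on the array. Tnfsf12, Tnfsf13 and Tnfsf13os had no named probe set and were not analysed here.

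All animals were wild-type adult male C57Bl6 mice that received their diet for 2 weeks. The control diet was CSAA, and the other was CDAA with added cholesterol, glucose and fructose. RNA came either from primary hepatocytes isolated by collagenase perfusion or from total liver, which was the caudal lobe taken after saline perfusion through the heart. Each hepatocyte group had 3 arrays and each total liver group 4, one per independent preparation, which gave 14 Clariom S arrays. The preparations were extracted with different RNA kits, and the cells that enter a total liver sample are not separated. All values are log2 intensities.

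Ligands of this family are mostly trimers, held in the membrane or shed, and cluster their receptors on the target cell. Receptors with a death domain can recruit adaptors that lead either to NF-kappaB signalling or to caspase activation, the other signalling receptors bind TRAF adaptors directly, and decoy receptors bind ligand without passing on a full signal. In the liver the family is best known for TNF, Fas and TRAIL acting on hepatocytes and for macrophages as a source of ligand.

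Each array also carried 5222 intron control probe sets, which gave a background for dim members. Their 95th percentile lay at 6.84 to 8.01 on the hepatocyte arrays and at 9.96 to 10.23 on the total liver arrays. In hepatocytes it was 7.64, 8.01 and 7.57 on CSAA and 6.84, 7.04 and 7.61 on CDAA. Array medians over all probe sets lay at 4.56 to 4.71 and at 6.07 to 6.24, so the tissues looked normalized as 2 sets and levels were not compared between them. The spread around the group means was larger in hepatocytes (root mean square 0.363 to 0.594 per array) than in total liver (0.229 to 0.320), and the hepatocyte contrasts are therefore also given from a fit of the 2 hepatocyte groups alone.

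The labelled tissues carried hepatocyte markers on every array: the mean of 8 of 8 lay at 17.79 to 17.97 in CSAA hepatocytes, 16.90 to 17.60 in CDAA hepatocytes, 17.40 to 17.45 in CSAA total liver and 17.26 to 17.29 in CDAA total liver. Of these 8 markers 2 fell on CDAA in hepatocytes and none rose, with a median difference of -0.53. In total liver none was called, with a median of -0.16. Over all tested probe sets the medians were -0.13 in hepatocytes and -0.09 in total liver. Markers of other cells parted the diets within the hepatocyte preparations. The mean of 8 of 8 Kupffer cell markers lay at 5.42 to 5.76 in CSAA hepatocytes, all 8 under the intron percentile on every array, and at 11.38 to 12.88 in CDAA hepatocytes, all 8 above it on every array. In total liver the same mean was 9.13 to 10.1 on CSAA and 11.06 to 11.72 on CDAA. Recruited macrophage markers (7 of 8 measured) went from 4.09 to 4.42 up to 9.17 to 10.96 in hepatocytes and from 5.73 to 5.88 up to 9.77 to 10.75 in total liver, and all 7 rose in both. Sinusoidal endothelial markers (8 of 8) lay at 6.17 to 6.60 and 9.72 to 11.02 in hepatocytes, where 8 rose, and at 10.26 to 10.42 and 10.12 to 10.98 in total liver, where 1 rose. Stellate cell markers (8 of 8) lay at 5.34 to 5.78 and 9.03 to 10.12 in hepatocytes, where 8 rose, and at 8.15 to 8.62 and 9.33 to 10.45 in total liver, where 4 rose. Neutrophil markers (5 of 6 measured) lay at 3.41 to 3.78 and 4.98 to 6.28 in hepatocytes, where 4 rose, and at 4.85 to 5.26 and 6.04 to 7.52 in total liver, where 3 rose. Of 6 measured T and NK cell markers 2 rose in each preparation and 1 fell in total liver. Among B and plasma cell markers 1 rose in hepatocytes. Dendritic cell markers gave 2 rises in hepatocytes and 1 in total liver, and no cholangiocyte marker was called. Beside these lists, 11% of all tested probe sets were called higher and 7.74% lower in hepatocytes, and 6.73% and 3.54% in total liver. The marker shifts accompany every hepatocyte result that follows. Their part in those results was not tested, and in such bulk samples more cells of a type and more RNA per cell cannot be told apart.

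**Figure D1:**
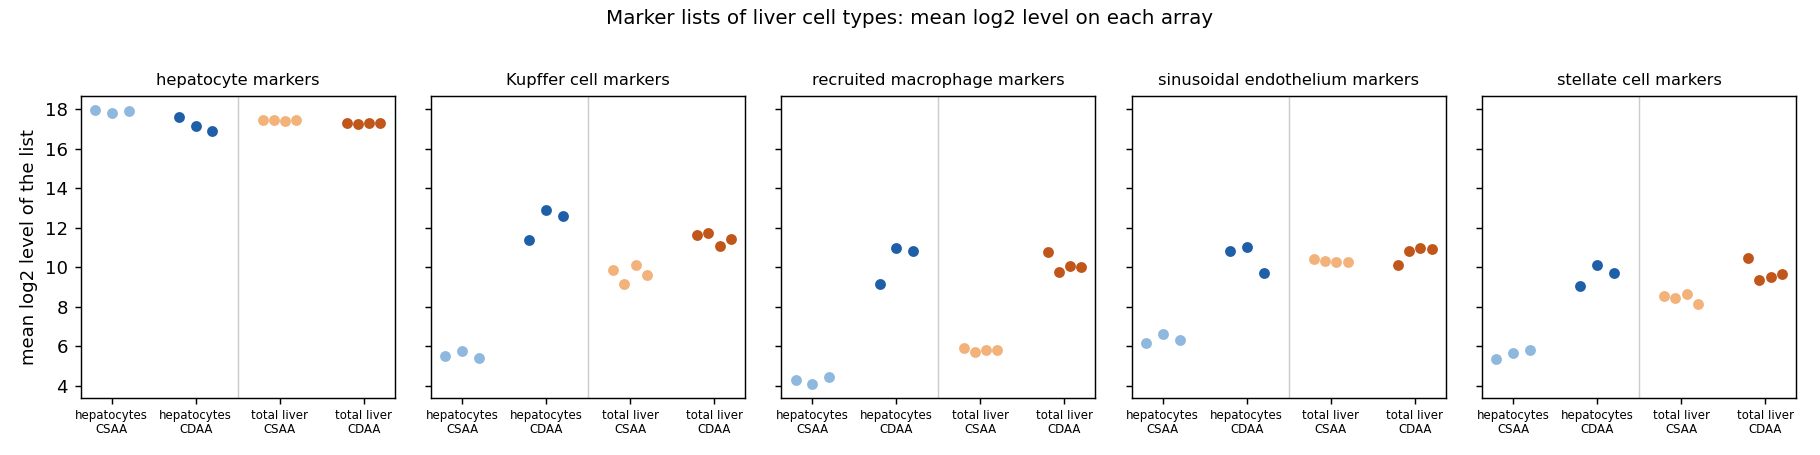
Mean log2 intensity (vertical axis) of hepatocyte, Kupffer cell, recruited macrophage, sinusoidal endothelial and stellate cell markers on each array, by preparation and diet. Kupffer cell markers sat at 5.42 to 5.76 on the CSAA hepatocyte arrays and at 11.38 to 12.88 on the CDAA ones.

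Against the introns, most of the family was dim. In CSAA hepatocytes 1 member, Tnfrsf1a, lay above the intron percentile on every array, and 28 lay wholly under it. In CDAA hepatocytes the members above it were 3, namely Tnfrsf1a, Tnfrsf12a and Tnfsf10. The percentile of CDAA replicates 1 and 2 was itself lower than on any CSAA hepatocyte array. Tnfsf10 read 7.54 on CDAA replicate 1, under the lowest CSAA percentile of 7.57. In total liver Tnfrsf1a alone was above on CSAA, and Tnfrsf1a and Tnfrsf12a were above on CDAA. By the same rule 21.9% of all tested probe sets were above in CSAA hepatocytes, 25.3% in CDAA hepatocytes, 18.7% in CSAA total liver and 19.8% in CDAA total liver. In every group 24 of the 29 members stayed wholly under the percentile. For such members a signal that is not well above background still entered the test, and a difference between dim values can understate a change in RNA.

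**Figure D2:**
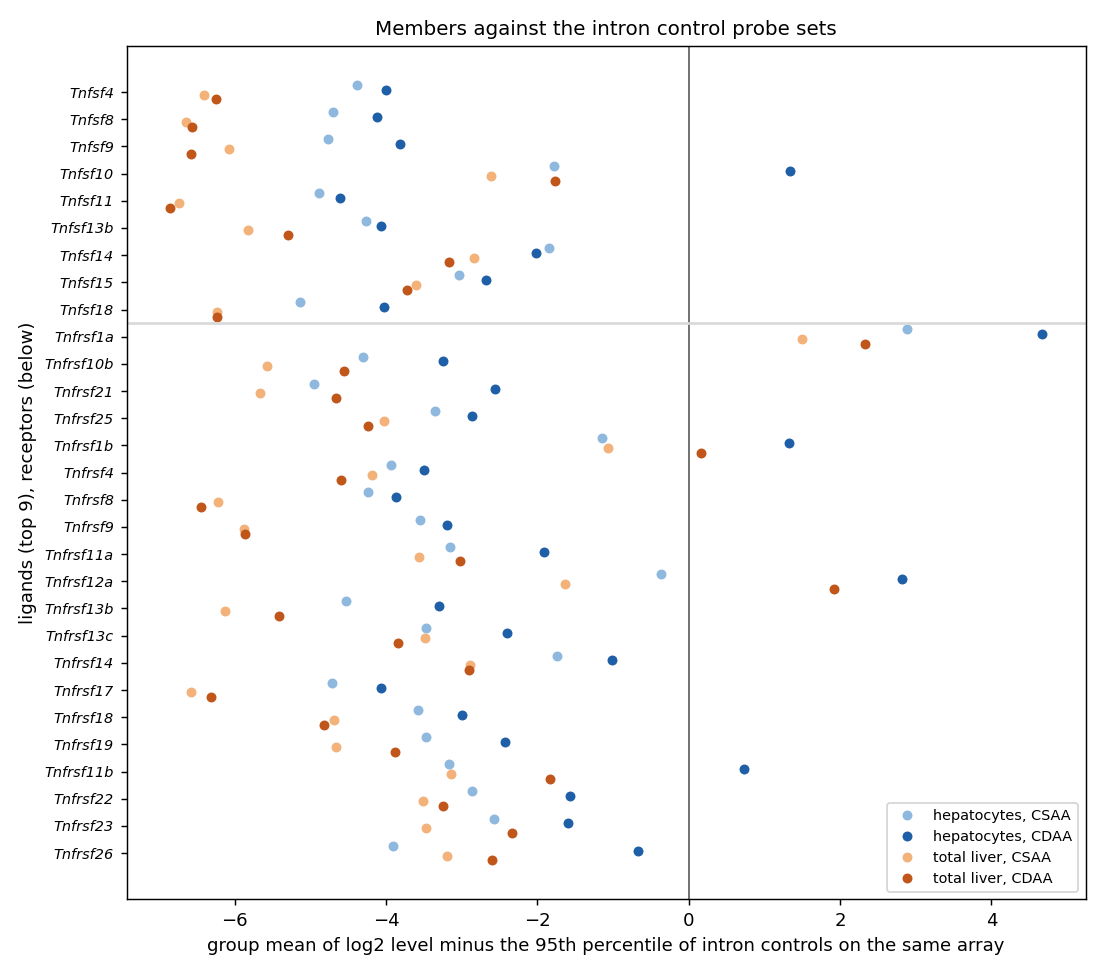
Mean log2 intensity of each member minus the intron 95th percentile of the same arrays, for the 4 groups, with 0 marking the percentile. Tnfrsf1a lies above 0 in all 4 groups, at 2.88 in CSAA hepatocytes, 4.67 in CDAA hepatocytes, 1.5 in CSAA total liver and 2.33 in CDAA total liver. The percentile differs between arrays, so the distance between groups is not the diet difference of a member.

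In total liver 6 members rose on CDAA and none fell, all of them receptors: Tnfrsf12a, Tnfrsf11b, Tnfrsf1b, Tnfrsf23, Tnfrsf10b and Tnfrsf19 (limma over 22206 probe sets, adjusted p under the threshold of 0.05). That was 20.7% of the members, beside 6.73% of all tested probe sets called higher, 3.54% called lower and 10.3% called in either direction. In hepatocytes 7 members rose and none fell: Tnfrsf11b, Tnfrsf26, Tnfrsf12a, Tnfsf10, Tnfrsf1b, Tnfrsf21 and Tnfrsf1a. That was 24.1% of the members, beside 11% of all tested probe sets called higher, 7.74% lower and 18.7% in either direction. The 3 members called in both preparations were Tnfrsf12a, Tnfrsf11b and Tnfrsf1b, and 19 were called in neither. With the 2 hepatocyte groups fitted alone, 4 members were called (Tnfrsf11b, Tnfrsf12a, Tnfrsf1b and Tnfrsf26), all higher, beside 6.53% of all probe sets higher and 1.95% lower. With the 2 total liver groups alone 9 were called, all higher, beside 11.7% higher and 9.05% lower. After centring each array on its median the hepatocyte split was 7 higher and 1 lower, the lower one being Tnfsf14. That stood beside 9.68% of all probe sets called higher and 14.6% lower under the same centring. The total liver count was 2 without CSAA replicate 1, CSAA replicate 2, CDAA replicate 1, CDAA replicate 3 or CDAA replicate 4, and 3 without CSAA replicate 4.

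Over all 29 members the median difference between diets was 0.22 in total liver and 0.40 in hepatocytes, beside -0.09 and -0.13 over all tested probe sets. Receptors had medians of 0.52 and 0.49, and ligands of -0.06 and -0.20. In 12 members of each preparation every CDAA array lay above every CSAA array (41.4%, beside 13.1% of all probe sets in total liver and 12.4% in hepatocytes). In 1 member of each preparation the order was the opposite, Tnfsf14 in total liver and Tnfsf11 in hepatocytes, beside 12% and 14.2%.

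**Figure D3:**
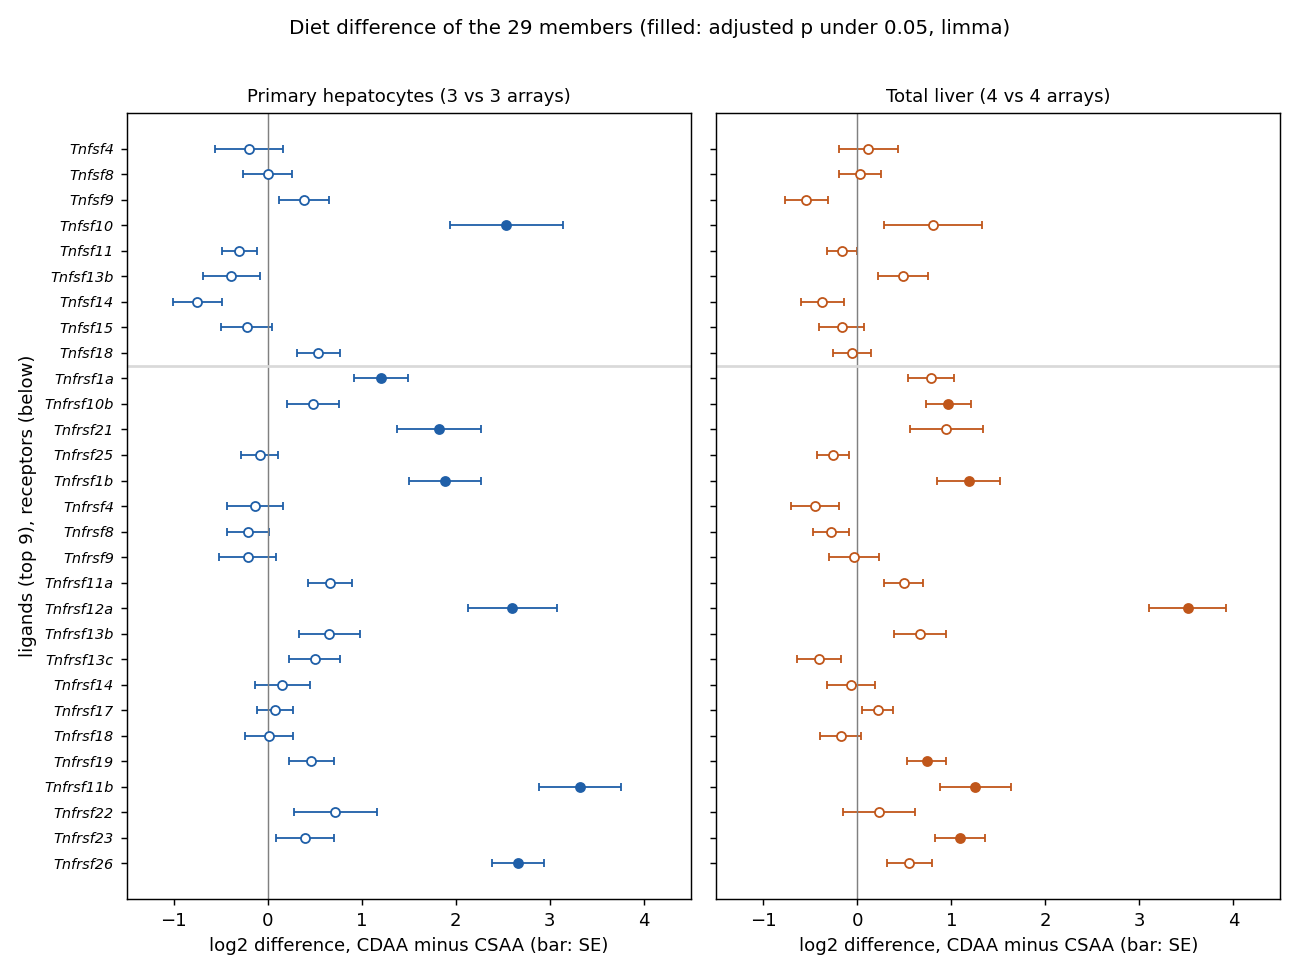
Log2 difference, CDAA minus CSAA, of each of the 29 members with its standard error, in total liver and in hepatocytes, grouped by role. Tnfrsf12a lies at 3.51 in total liver and 2.60 in hepatocytes, and differences of members under the introns on CSAA are not ranked.

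Among the 9 ligands, 1 rose in hepatocytes (Tnfsf10) and none in total liver. The hepatocyte share of 11.1% is that of all tested probe sets called higher (11%), and 6.73% of them were called higher in total liver. Tnfsf10 encodes TRAIL, a ligand that can trigger apoptosis through its death receptor. Its hepatocyte values were 4.41, 6.06 and 7.41 on CSAA and 7.54, 9.89 and 8.08 on CDAA. Every CDAA array lay above every CSAA array, but the CSAA arrays themselves spanned a wide range. The difference was 2.54 ± 0.60 (SE; limma adjusted p = 0.00683), at least 1.69-fold, since the CSAA arrays lay under the intron percentile. Without CDAA replicate 2 it was at least 1.05-fold. It was not called with the 2 hepatocyte groups alone (adjusted p = 0.128). In total liver Tnfsf10 read 7.32, 7.59, 7.48 and 7.47 on CSAA and 8.15, 8.28, 8.33 and 8.31 on CDAA, under the percentile on every array. These total liver groups were tight and did not overlap. The difference of 0.80 ± 0.52 was not called with the pooled spread (adjusted p = 0.382) and was called with the 2 groups alone (0.80 ± 0.13, adjusted p = 0.00128).

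Tnfsf13b encodes BAFF, a survival factor for B cells. It read 3.67, 3.68 and 3.09 on CSAA and 3.01, 3.09 and 3.17 on CDAA in hepatocytes, and 4.45, 3.38, 4.71 and 4.5 against 5.07, 4.45, 4.56 and 4.88 in total liver. The diets overlapped in both, with differences of -0.39 ± 0.31 (adjusted p = 0.426) and 0.48 ± 0.26 (adjusted p = 0.295). Tnfsf14 encodes LIGHT, a ligand of the lymphotoxin beta receptor and of Tnfrsf14. Its hepatocyte values were 5.91, 6.11 and 5.65 on CSAA and 5.80, 5.02 and 4.62 on CDAA, and its total liver values were 7.21, 7.40, 7.25 and 7.13 on CSAA and 6.75, 7.09, 6.99 and 6.66 on CDAA. CDAA arrays were lower in total liver without overlap, and the hepatocyte groups overlapped in 1 array. Neither difference was called (-0.75 ± 0.26, adjusted p = 0.0598 in hepatocytes, and -0.38 ± 0.23, adjusted p = 0.344 in total liver), but the hepatocyte one was called without CDAA replicate 1 (-1.07, adjusted p = 0.00212), after joint quantile normalization (-0.96, adjusted p = 0.0184) and after median centring (-0.91, adjusted p = 0.0191). The other 6 ligands, Tnfsf4, Tnfsf8, Tnfsf9, Tnfsf11, Tnfsf15 and Tnfsf18, most of them costimulators of lymphocytes, lay under the percentile on every array, with differences from -0.55 for Tnfsf9 in total liver to 0.54 for Tnfsf18 in hepatocytes, none called. T and NK cell, B cell and dendritic cell markers also lay wholly under the percentile in every group.

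Of the 12 signalling receptors without a death domain, 3 rose in total liver and 2 in hepatocytes, beside 6.73% and 11% of all tested probe sets. Tnfrsf12a, called in both, encodes Fn14, the receptor of TWEAK, which is known from regenerating and injured liver. The hepatocyte arrays read 7.63, 6.98 and 7.53 on CSAA and 10.43, 9.48 and 10.03 on CDAA. The total liver arrays read 7.70, 8.26, 9.02 and 8.80 on CSAA and 12.78, 12.79, 11.01 and 11.25 on CDAA. All CDAA arrays stood above the intron percentile and all CSAA arrays under it, with no overlap in either preparation. Its rise was 3.51 ± 0.41 in total liver (adjusted p = 4.26e-05), at least 3.66-fold, and 2.60 ± 0.47 in hepatocytes (adjusted p = 0.000896), at least 4.73-fold. Both calls held with each array left out, at 3.23 to 3.83 in total liver and 2.38 to 2.85 in hepatocytes, and with the 2 groups alone (adjusted p = 0.000164 and 0.00269). The diet difference in total liver exceeded that in hepatocytes by 0.91 ± 0.63, which was not called (adjusted p = 0.647). Its ligand gene Tnfsf12 is one of those not analysed here.

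Tnfrsf1b encodes the TNF receptor that lacks a death domain and is found mainly on immune and endothelial cells. Its hepatocyte values were 7.06, 6.45 and 6.28 on CSAA and 9.23, 8.62 and 7.59 on CDAA. In total liver it read 9.07, 8.33, 9.44 and 9.24 on CSAA and 10.70, 10.11, 10.07 and 9.93 on CDAA. CDAA was higher without overlap in both, and CSAA lay wholly under the percentile. The rise was 1.88 ± 0.38 in hepatocytes (adjusted p = 0.00227), at least 1.67-fold, and 1.18 ± 0.33 in total liver (adjusted p = 0.0331), at least 1.08-fold (no such bound was left without CDAA replicate 1). The hepatocyte call held with each array left out (1.51 to 2.33). The total liver call was lost without CSAA replicate 1, 2 or 4 or any 1 of the CDAA replicates, at 0.95 to 1.27 and adjusted p = 0.050 to 0.117, and was kept with the 2 groups alone (adjusted p = 0.00601).

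Tnfrsf19 (TROY), a receptor best known from the nervous system and from stem cells, was dim throughout. It read 4.49, 4.5 and 3.83 on CSAA and 4.88, 4.61 and 4.73 on CDAA in hepatocytes, and 5.53, 5.53, 5.03 and 5.59 against 5.99, 5.93, 6.52 and 6.19 in total liver. The diets did not overlap in either preparation, and every array lay under the intron percentile. It rose in total liver by 0.74 ± 0.21 (adjusted p = 0.0347) and was not called in hepatocytes (0.47 ± 0.24, adjusted p = 0.206). The total liver call was lost without any 1 of the CSAA arrays and without CDAA replicate 1, 3 or 4, at 0.61 to 0.79 and adjusted p = 0.0524 to 0.110. Joint quantile normalization of all arrays and median centring also ended it. The other 9 receptors of this role, Tnfrsf4, Tnfrsf8, Tnfrsf9, Tnfrsf11a, Tnfrsf13b, Tnfrsf13c, Tnfrsf14, Tnfrsf17 and Tnfrsf18, were called in neither preparation and ranged from -0.45 to 0.66 in total liver and from -0.21 to 0.66 in hepatocytes. The highest in hepatocytes was Tnfrsf11a, which encodes RANK (0.66 ± 0.24, adjusted p = 0.0635), and the highest in total liver was Tnfrsf13b, which encodes TACI (0.66 ± 0.28, adjusted p = 0.158).

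Promoter sequence is shown for Tnfrsf12a, Tnfrsf1a and Tnfrsf1b, because these and Tnfrsf11b were the receptors with at least 1 array above the intron percentile. The 250 bases before the RefSeq start site are given 5′ to 3′ on the gene's strand, from GRCm38.p6 at chr17:23677450-23677699 (minus strand) for Tnfrsf12a, chr6:125349473-125349722 (plus strand) for Tnfrsf1a and chr4:145246871-145247120 (minus strand) for Tnfrsf1b. Capitals mark the GC box, GGGCGG on either strand.
Tnfrsf12a: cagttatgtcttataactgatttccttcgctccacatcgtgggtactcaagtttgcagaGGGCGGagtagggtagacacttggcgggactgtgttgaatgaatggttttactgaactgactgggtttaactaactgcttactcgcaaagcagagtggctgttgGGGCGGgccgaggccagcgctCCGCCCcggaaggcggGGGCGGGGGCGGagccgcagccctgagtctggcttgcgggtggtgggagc
Tnfrsf1a: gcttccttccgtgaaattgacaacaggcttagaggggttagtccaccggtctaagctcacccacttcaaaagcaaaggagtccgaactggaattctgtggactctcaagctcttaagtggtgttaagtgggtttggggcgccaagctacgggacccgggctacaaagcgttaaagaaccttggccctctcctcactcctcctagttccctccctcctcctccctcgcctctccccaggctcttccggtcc
Tnfrsf1b: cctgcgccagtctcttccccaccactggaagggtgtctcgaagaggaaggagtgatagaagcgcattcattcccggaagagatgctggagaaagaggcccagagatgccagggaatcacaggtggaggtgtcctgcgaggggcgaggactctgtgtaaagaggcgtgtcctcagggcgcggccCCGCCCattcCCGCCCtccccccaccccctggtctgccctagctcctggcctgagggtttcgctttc
The Tnfrsf12a window held 5 GC boxes, 2 of them side by side, the Tnfrsf1b window held 2 and the Tnfrsf1a window none, with a GC content of 58.8%, 62.8% and 55.6%. A GC box was found in 32.7% of the 32851 mouse promoter windows of this length. The same search on both strands with the AP-1 letters TGANTCA (6.75% of windows) and the kappaB consensus (3.9% of windows) found no match in these 3 windows. Among the 23 members with a window, 4 held an AP-1 match (Tnfrsf8, Tnfrsf9, Tnfsf13b and Tnfsf14) and 2 a kappaB match (Tnfrsf8 and Tnfrsf9), none of them called in either preparation. A match describes letters and no binding, and the absence of one says only that these letters are not in the window.

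Death-domain receptors numbered 4, and Tnfrsf1a was the one member above the intron percentile on all 14 arrays. It encodes the main TNF receptor of hepatocytes, which can signal either to NF-kappaB or to cell death. Hepatocytes read 10.23, 11.02 and 10.62 on CSAA and 12.50, 11.56 and 11.43 on CDAA, and total liver read 11.40, 11.71, 11.81 and 11.41 on CSAA and 12.53, 12.49, 12.41 and 12.02 on CDAA. The diets did not overlap in either preparation. The hepatocyte rise was 1.21 ± 0.28 (adjusted p = 0.00680), and it was 0.87 to 1.41 with 1 array left out, but it was not called with the 2 groups alone (adjusted p = 0.0983). The total liver difference of 0.78 ± 0.25 was not called (adjusted p = 0.0572), and was called with the 2 groups alone (adjusted p = 0.00660). Both preparations thus gave differences of like sign whose calls changed with how the spread was estimated. The total liver difference was also called after joint quantile normalization of all arrays. Total liver minus hepatocytes was -0.43 ± 0.38 and not called (adjusted p = 0.742).

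Tnfrsf10b encodes the death receptor for TRAIL. Its total liver values were 4.56, 4.27, 4.60 and 4.62 on CSAA and 6.13, 5.24, 4.87 and 5.68 on CDAA, and its hepatocyte values were 3.43, 3.32 and 3.55 on CSAA and 4.23, 3.88 and 3.66 on CDAA. Diets did not overlap in either preparation, and no array reached the intron percentile. It rose in total liver (0.97 ± 0.24, adjusted p = 0.0163) and was not called in hepatocytes (0.49 ± 0.28, adjusted p = 0.253). The total liver call was lost without CSAA replicate 2, CDAA replicate 1 or CDAA replicate 4, at 0.75 to 0.90 and adjusted p = 0.0560 to 0.0600. Tnfrsf21, which encodes death receptor DR6, read 2.65, 2.56 and 3.13 on CSAA and 5.49, 4.85 and 3.47 on CDAA in hepatocytes. Total liver read 3.98, 4.18, 4.83 and 4.71 on CSAA and 6.31, 5.0, 5.11 and 5.07 on CDAA. Again the diets were apart and every array lay under the percentile. The hepatocyte rise was 1.82 ± 0.45 (adjusted p = 0.00908; 0.0719 with the 2 groups alone) and the total liver difference was 0.95 ± 0.39 (adjusted p = 0.150; 0.0449 alone). Tnfrsf25, a lymphocyte receptor, was not called, at -0.26 ± 0.17 in total liver and -0.09 ± 0.20 in hepatocytes.

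The 3 decoy receptors included Tnfrsf11b, which encodes osteoprotegerin, a secreted receptor that binds RANKL and TRAIL. Its hepatocyte values were 4.25, 4.56 and 4.91 on CSAA and 6.49, 8.73 and 8.47 on CDAA. The total liver values were 6.98, 6.67, 6.71 and 7.44 on CSAA and 8.38, 8.08, 7.94 and 8.40 on CDAA. Diets did not overlap, but only 2 of the 3 CDAA hepatocyte arrays stood above the intron percentile, and no total liver array did. Hepatocytes showed a rise of 3.33 ± 0.44 (adjusted p = 4.06e-05), at least 1.12-fold (1.81-fold without CDAA replicate 1, and no such bound without CDAA replicate 2 or 3), which was called also with the 2 groups alone (adjusted p = 0.0107) and was 2.91 to 4.03 with 1 array left out. Total liver showed a rise of 1.25 ± 0.38 close to the threshold (adjusted p = 0.0467). That call was lost without any 1 of the total liver arrays or of the CSAA hepatocyte arrays (1.16 to 1.41, adjusted p = 0.0503 to 0.125), under joint quantile normalization and under median centring, and it was kept with the 2 groups alone (adjusted p = 0.000958). The difference between the preparations was -2.07 ± 0.58 and not called (adjusted p = 0.0838).

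Tnfrsf22, Tnfrsf23 and Tnfrsf26 stand next to each other in the mouse genome, with no protein-coding gene between them in RefSeq, and are similar copies. Whether their probe sets tell them apart was not tested. Tnfrsf22 and Tnfrsf23 encode decoy receptors for TRAIL, and the ligand of Tnfrsf26 is not settled. Tnfrsf23 read 6.40, 6.82, 6.61 and 6.62 on CSAA and 7.74, 7.88, 8.12 and 7.08 on CDAA in total liver, without overlap, and rose by 1.09 ± 0.27 (adjusted p = 0.0157). That call was lost without CSAA replicate 1 or CDAA replicate 3 (0.95 to 1.02, adjusted p = 0.0519 to 0.0547). In hepatocytes its diets overlapped, at 5.41, 4.98 and 5.12 against 6.31, 5.14 and 5.26 (0.40 ± 0.31, adjusted p = 0.417). Tnfrsf26 showed the other arrangement. Its hepatocyte values were 3.51, 4.16 and 3.81 on CSAA and 5.91, 6.81 and 6.76 on CDAA, a rise of 2.67 ± 0.28 (adjusted p = 3.73e-06; 0.00254 with the 2 groups alone). Total liver read 6.80, 7.20, 6.45 and 7.08 on CSAA and 7.31, 7.24, 7.57 and 7.62 on CDAA, a difference of 0.55 ± 0.24 that was not called (adjusted p = 0.173). Tnfrsf22, named for its place and not for its values, was called in neither (0.23 ± 0.38 in total liver and 0.72 ± 0.44 in hepatocytes). All 3 lay under the intron percentile on every array.

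**Figure D4:**
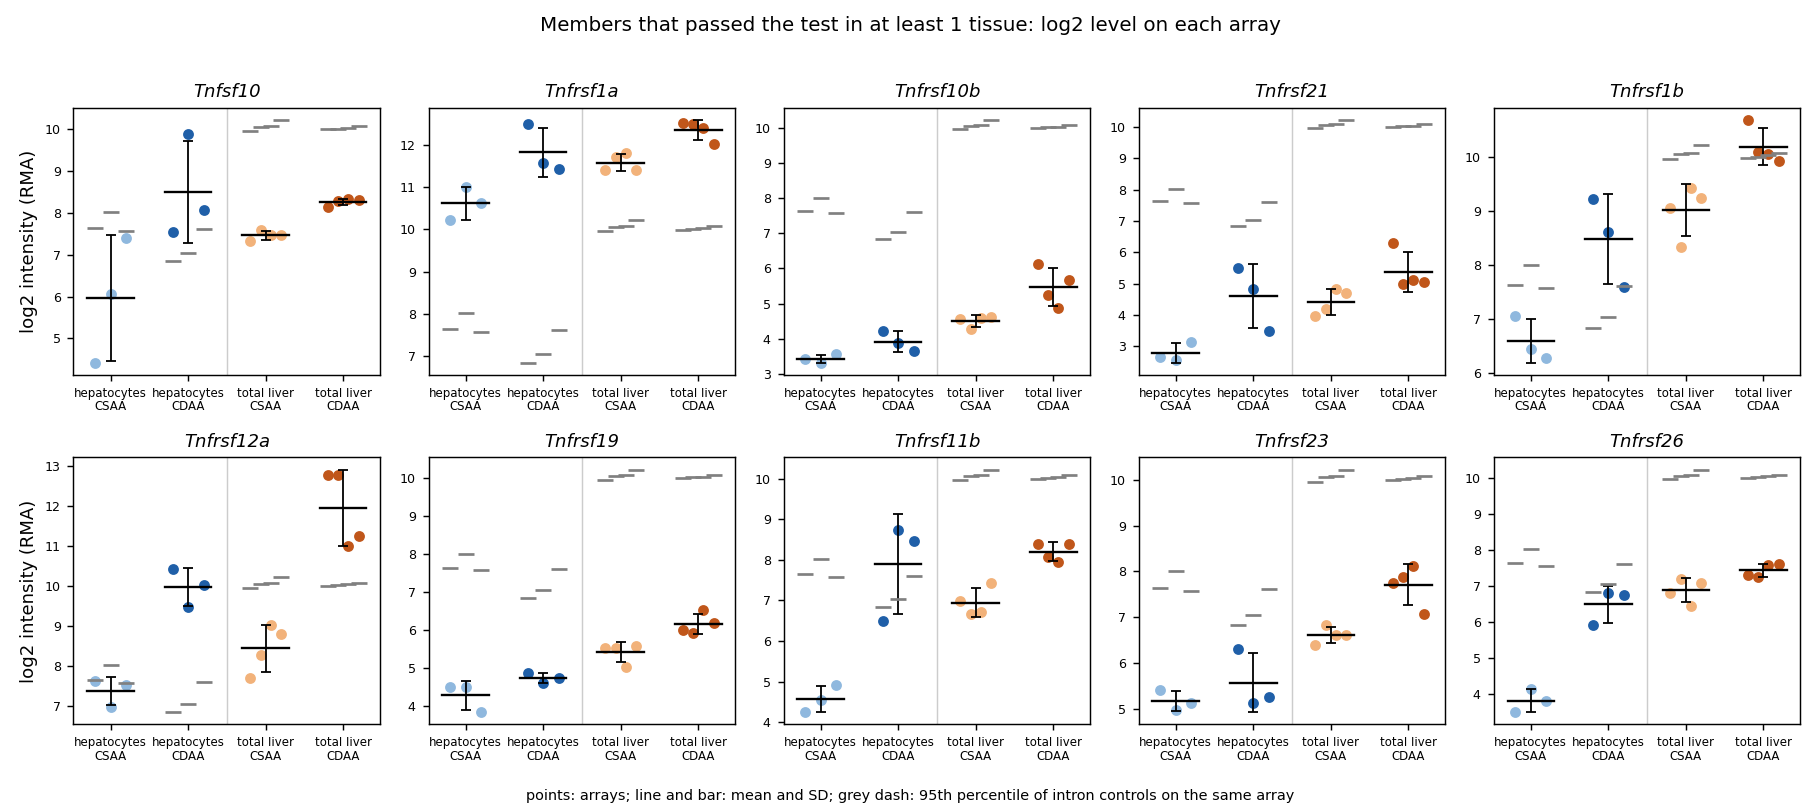
Log2 intensity on every array of the 10 members called in at least 1 preparation, by preparation and diet, with group mean and SD and the intron 95th percentile of each array as grey dashes. Tnfrsf12a passes from 7.70 to 9.02 on CSAA to 11.01 to 12.79 on CDAA in total liver, across the percentile, while Tnfrsf26 stays under it on every array.

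The test of the difference between the preparations, total liver effect minus hepatocyte effect, called 1 member of 29, Tnfrsf26 (-2.11 ± 0.36, adjusted p = 0.00347). All 14 arrays read Tnfrsf26 under the intron percentile, which lay higher in total liver than in hepatocytes, so the difference is one of measured dim signals and does not order the changes in RNA. Over all tested probe sets 2.57% were called, 2.36% with a negative difference. Tnfsf10 differed by -1.74 ± 0.79 and Tnfrsf1b by -0.70 ± 0.51, neither called (adjusted p = 0.402 and 0.667). For Tnfsf10, Tnfrsf1a and Tnfrsf21, which were called in hepatocytes and not in total liver, a difference between the preparations was therefore not shown. The other-cell markers that parted the CDAA from the CSAA hepatocyte arrays bear on this contrast as well, and their part was not tested. Among the called members of hepatocytes, the highest CDAA array was replicate 1 for Tnfrsf12a, Tnfrsf1a, Tnfrsf1b and Tnfrsf21 and replicate 2 for Tnfrsf11b, Tnfrsf26 and Tnfsf10. Kupffer cell markers were lowest in replicate 1 of these arrays (11.38, against 12.88 and 12.58), recruited macrophage markers likewise (9.17, against 10.96 and 10.80), and endothelial markers were 10.80, 11.02 and 9.72.

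The superfamily also holds genes with other symbols, of which 15 of 16 listed were measured. In total liver 2 rose (Tnf and Eda2r) and none fell, with a median difference of 0.30. In hepatocytes 3 rose (Tnf, Eda2r and Cd40) and none fell, with a median of 0.35. Over all tested probe sets 6.73% were called higher in total liver and 11% in hepatocytes, with medians of -0.09 and -0.13. Tnf, the founding ligand, read 2.16, 2.97 and 2.71 on CSAA and 9.78, 8.33 and 8.17 on CDAA in hepatocytes, passing the intron percentile on every CDAA array. Its rise there was 6.15 ± 0.48 (adjusted p = 1.76e-07), at least 2.03-fold. In total liver Tnf read 3.21, 2.95, 3.36 and 3.66 against 7.09, 5.34, 5.29 and 5.29, under the percentile throughout, with a rise of 2.45 ± 0.41 (adjusted p = 0.00102). The measured differences parted between the preparations (total liver minus hepatocytes, -3.69 ± 0.63, adjusted p = 0.00313), but with all total liver values under the percentile the data do not order the 2 changes in Tnf RNA. Eda2r, a receptor of ectodysplasin, rose in total liver without reaching the percentile, from 4.35, 4.18, 4.36 and 4.15 to 8.06, 7.11, 6.96 and 7.46 (3.14 ± 0.33, adjusted p = 1.53e-05). The hepatocyte rise of Eda2r was 1.44 ± 0.38 (adjusted p = 0.0136). It was lost with the 2 groups alone (adjusted p = 0.120) and without CSAA replicate 1, CSAA replicate 3 or CDAA replicate 2 (1.04 to 1.34, adjusted p = 0.0501 to 0.0788).

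Cd40, a costimulatory receptor of antigen-presenting cells, overlapped between the diets in hepatocytes, at 4.42, 4.31 and 3.62 against 4.20, 6.73 and 6.07. It was called there (1.55 ± 0.47, adjusted p = 0.0307) but not with the 2 groups alone (adjusted p = 0.204), and the call was also lost without CSAA replicate 2 or 3 or CDAA replicate 2 or 3. Without CDAA replicate 2 the difference was 1.02 (adjusted p = 0.161). Ltbr, the lymphotoxin beta receptor, was bright on every array and not called, at 0.68 ± 0.26 in total liver (adjusted p = 0.129; 0.00491 with the 2 groups alone) and 0.45 ± 0.31 in hepatocytes (adjusted p = 0.348). Fas, the death receptor of Fas ligand, was not called either, at 0.30 ± 0.23 and 0.59 ± 0.26 (adjusted p = 0.142 in hepatocytes).

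**Figure D5:**
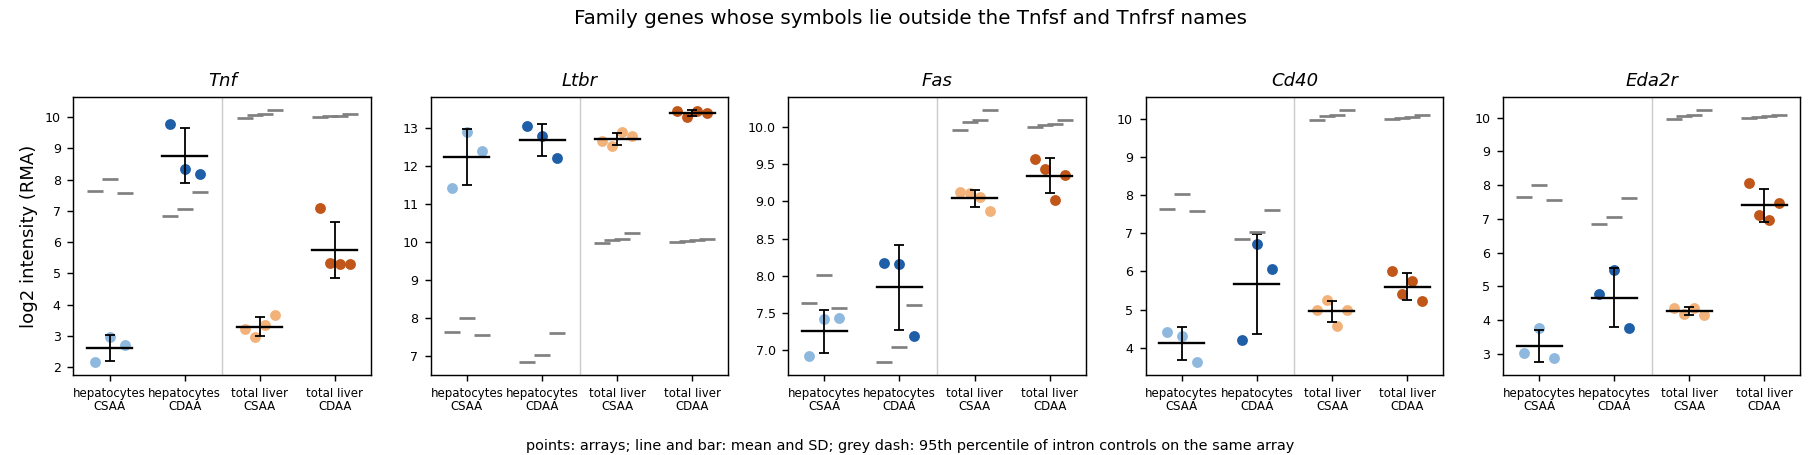
Log2 intensity on every array of Tnf, Ltbr, Fas, Cd40 and Eda2r, by preparation and diet, with group mean and SD and the intron percentile of each array as grey dashes. Tnf lies above the percentile on the 3 CDAA hepatocyte arrays, at 8.17 to 9.78, and under it on every other array.

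Downstream genes were read from lists by role. Of 17 measured adaptors and ubiquitin ligases none rose and 1 fell in total liver, and 2 rose and 1 fell in hepatocytes, with medians of 0.20 and -0.01. Over all tested probe sets 6.73% were called higher and 3.54% lower in total liver, and 11% and 7.74% in hepatocytes. The counts of this list do not stand out from those shares. The gene that fell in both was Xiap, an inhibitor of caspases (-0.71 ± 0.19, adjusted p = 0.0257 in total liver and -0.82 ± 0.22, adjusted p = 0.0160 in hepatocytes). Tank, a TRAF-binding protein, rose in hepatocytes (1.29 ± 0.32, adjusted p = 0.00935), as did Birc3, a ubiquitin ligase of the TNF receptor complex (1.10 ± 0.32, adjusted p = 0.0246). The Xiap calls were lost without 6 of the 8 arrays of total liver (all but CSAA replicate 2 and CDAA replicate 4) and without 3 of the hepatocyte arrays (CSAA replicate 1, CSAA replicate 2 and CDAA replicate 2), at -0.77 to -0.66 and adjusted p = 0.0509 to 0.0793. The Tank call was lost without CSAA replicate 2 (0.97, adjusted p = 0.0534), and that of Birc3 without CSAA replicate 2 or CDAA replicate 2 (0.86 to 0.94, adjusted p = 0.100 to 0.120). All 3 hepatocyte calls were also lost with the 2 groups alone, that of Birc3 under joint quantile normalization, and the total liver call of Xiap with trend and robust estimation.

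Of 14 measured NF-kappaB genes 6 rose in total liver and 5 in hepatocytes, and none fell (medians 0.76 and 0.55). Of all tested probe sets 6.73% were called higher in total liver and 11% in hepatocytes (medians -0.09 and -0.13). Tnfaip3 encodes A20, an inhibitor of this pathway that the pathway itself induces. It rose by 4.03 ± 0.62 in total liver (adjusted p = 0.000479), at least 1.14-fold against the percentile, and by 6.54 ± 0.71 in hepatocytes (adjusted p = 6.24e-06), at least 9.97-fold. The hepatocyte bound was 4.74-fold without CDAA replicate 1 and 18.6-fold without CDAA replicate 3. Nfkb2 and Map3k14, a subunit precursor and the kinase of the alternative pathway, rose in total liver (1.84 ± 0.33, adjusted p = 0.00170, and 1.26 ± 0.27, adjusted p = 0.00631) and were not called in hepatocytes (0.45 and 0.68). A difference between the preparations was not shown for either (1.38 ± 0.50, adjusted p = 0.240 for Nfkb2 and 0.58 ± 0.41, adjusted p = 0.666 for Map3k14), and both stayed under the intron percentile on every array. Nfkbia, the inhibitor of the classical pathway, rose in hepatocytes by 4.02 ± 0.53 (adjusted p = 4.02e-05) and was not called in total liver (1.20 ± 0.46, adjusted p = 0.118), where the groups did not overlap and the 2 groups alone gave a call (1.20 ± 0.22, adjusted p = 0.00281). Total liver minus hepatocytes was -2.82 ± 0.70 for Nfkbia (adjusted p = 0.0422). That call was lost under joint quantile normalization, with the spread estimated per preparation (adjusted p = 0.125), and without hepatocyte CSAA replicate 2 or any 1 of the total liver arrays but CDAA replicate 1, at -2.95 to -2.11 over these losses. The subunit gene Rel rose in both (1.05 ± 0.27, adjusted p = 0.0207 in total liver and 1.87 ± 0.31, adjusted p = 0.000430 in hepatocytes), and the A20-binding Tnip1 rose in hepatocytes (1.33 ± 0.34, adjusted p = 0.0114). On hepatocyte arrays both genes passed the percentile only in CDAA replicates 1 and 2, and no at-least fold was left. Total liver Rel passed it only in CDAA replicate 1. The total liver call of Rel was lost without CSAA replicate 2, CSAA replicate 4 or CDAA replicate 1 (0.89 to 1.05, adjusted p = 0.0510 to 0.0813). The hepatocyte call of Tnip1 was lost without CSAA replicate 1 or CDAA replicate 2 (1.08 to 1.17, adjusted p = 0.0578 to 0.0594) and with the 2 groups alone.

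Of 8 measured cell death genes 4 rose in each preparation and none fell (medians 0.43 and 0.66). The shares called higher over all tested probe sets were 6.73% in total liver and 11% in hepatocytes. Ripk3 and Mlkl, the kinase and the membrane effector of necroptosis, rose in both. Ripk3 rose by 1.48 ± 0.30 in total liver (adjusted p = 0.00434) and by 3.22 ± 0.35 in hepatocytes (adjusted p = 5.78e-06). Mlkl rose by 1.87 ± 0.29 (adjusted p = 0.000545) and 2.74 ± 0.33 (adjusted p = 1.99e-05). Bak1, a pore-forming protein of mitochondrial apoptosis, rose in both (1.04 ± 0.29, adjusted p = 0.0336, and 1.45 ± 0.34, adjusted p = 0.00628). Bid, which links death receptors to mitochondria, rose in total liver (0.83 ± 0.24, adjusted p = 0.0388), and Casp8, the initiator caspase of death receptors, rose in hepatocytes (1.01 ± 0.31, adjusted p = 0.0326). Bid was not called in hepatocytes, where its sign was not settled (0.12, and -0.041 after centring). The total liver calls of Bak1 and Bid were lost without 6 and 7 of the 8 total liver arrays in turn, at adjusted p = 0.0565 to 0.121. The exceptions were CSAA replicate 3 and CDAA replicate 4 for Bak1 and CSAA replicate 2 for Bid. Joint quantile normalization and median centring also ended the total liver calls of Bak1 and Bid. The hepatocyte call of Casp8 was lost without CSAA replicate 1 or 2 or CDAA replicate 2 (0.74 to 0.86, adjusted p = 0.124 to 0.159). The hepatocyte calls of Bak1 and Casp8 were lost with the 2 groups alone, and that of Casp8, whose groups overlapped, after centring. In total liver Ripk3, Bak1 and Bid stayed under the percentile on both diets. In hepatocytes Ripk3 passed it on CDAA replicate 2 alone (6.78, 7.64 and 6.74 on CDAA). Bak1 passed it there on CDAA replicates 1 and 2 alone, and no at-least fold was left for either gene.

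Of 12 genes known as TNF-induced, 7 rose in total liver and 10 in hepatocytes, and none fell (medians 1.59 and 2.63). Beside them stand 6.73% and 11% of all tested probe sets called higher. Vcam1, an adhesion molecule, rose by 3.58 ± 0.27 in total liver (adjusted p = 1.05e-06) and 8.59 ± 0.32 in hepatocytes (adjusted p = 1.37e-10). The chemokines followed the same direction: Cxcl2 by 2.39 ± 0.32 and 7.14 ± 0.37, Cxcl10 by 3.53 ± 0.43 and 5.66 ± 0.49, and Ccl2 by 3.31 ± 0.48 and 5.73 ± 0.56, all past the threshold in both. Against the percentile the hepatocyte rises were at least 25.1-fold for Vcam1, 9.57-fold for Cxcl10, 6.31-fold for Cxcl2 and 4.65-fold for Ccl2 (7.56-fold without CDAA replicate 1). In total liver Vcam1 rose at least 2.41-fold, no such bound was left for Ccl2, and Cxcl2 and Cxcl10 stayed under the percentile on both diets. In the difference test Vcam1 and Cxcl2 gave -5.01 ± 0.42 (adjusted p = 8.47e-06) and -4.75 ± 0.49 (adjusted p = 4.24e-05). Their CSAA values lay under the percentile in both preparations, and Cxcl2 also under it on CDAA in total liver, so these differences do not order the changes in RNA. Kupffer, endothelial and stellate cell markers rose on the same hepatocyte arrays, with the values given above, and their part in these results was not tested.

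Several family genes neighbour each other in RefSeq, and called genes lay beside genes that were not called. Tnfrsf1b, called in both preparations, is next to Tnfrsf8, which was called in neither (-0.28 ± 0.19 in total liver and -0.21 ± 0.22 in hepatocytes) and was named for its place. Tnf lies between Ltb and Lta, and Tnfrsf1a is 1 protein-coding gene away from Ltbr. Tnfsf4, Tnfsf18 and Fasl are in a row, as are Tnfsf9, Cd70 and Tnfsf14, without a call among these ligands.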

How the data were processed

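RNA of 14 mouse samples was measured on 1 Clariom S array each. The deposited values are log2 intensities per probe set that the authors made by RMA, per the submitters' processing notes, with no version given. RMA subtracts background, normalizes and summarises, which compresses differences between dim probe sets. The table held 28846 probe sets, of which 6640 controls were left out and 22206 were tested with no filter on dim ones. Gene symbols came from the platform annotation given with the series, and 29 of 29 member symbols matched RefSeq. Intron controls were the 5222 controls whose identifiers start with MG- and contain -neg-.

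The 4 group means were estimated together in limma 3.58.1 (R 4.3.3), with 10 residual degrees of freedom and 5.11 prior ones. CDAA was compared with CSAA within each preparation, and then the diet effects of the preparations with each other. These moderated tests were two-sided, p-values were adjusted by Benjamini-Hochberg across the whole table of 22206, and the threshold was 0.05. The scripts were tested on simulated data. A group whose arrays all lay under the 95th percentile of their own introns was set at that percentile for the "at least" folds. Errors are standard errors of the fit, and the number of arrays limits their precision.

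Members and lists were chosen with earlier results of these data known. Values by array are given for every member called in a contrast, every member above the introns in a group and a fixed set (Tnfsf10, Tnfsf13b, Tnfsf14, Tnfrsf1a, Tnfrsf1b, Tnfrsf10b, Tnfrsf11b, Tnfrsf12a, Tnfrsf21). Of each downstream list, up to 4 called genes per preparation with the smallest p are named, and always Tnf, Fas, Ltbr, Cd40 and Eda2r. Alternatives were limma with trend and robust estimation, the compared groups alone, a filter on the dimmest 30%, joint quantile normalization, median centring, the replicate number as a block, the mean over a symbol's probe sets, the spread estimated per preparation, other intron percentiles and each array left out.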

Additional observations from a re-analysis of the deposited data

Results flagged for a closer look

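On 5 occasions 1 total liver array stood apart from the other 3 of its group, among 74 groups of 4 arrays tested, of which chance flags about 1 in 20. Tnfrsf10b read 4.27 in CSAA replicate 2, against 4.56 to 4.62 in the others. Tnfrsf19 read 5.03 in CSAA replicate 3, against 5.53 to 5.59. In CDAA replicate 1, Tnfrsf21 read 6.31 (5.0 to 5.11 in the others), Tnf 7.09 (5.29 to 5.34) and Vcam1 11.96 (11.11 to 11.22). On that array the marker means were highest for recruited macrophages (10.75 against 9.77 to 10.03), neutrophils (7.52 against 6.04 to 6.28) and stellate cells (10.45 against 9.33 to 9.65), lowest for endothelium (10.12 against 10.80 to 10.98) and within the others for Kupffer cells (11.65 against 11.06 to 11.72). Their part was not tested.

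The diet effect differed between the preparations by the interaction test for 1 member and 4 related genes. The total liver effect minus the hepatocyte effect was -2.11 for Tnfrsf26, -2.82 for Nfkbia, -3.69 for Tnf, -4.75 for Cxcl2 and -5.01 for Vcam1. Tnfrsf26, Tnf and Cxcl2 lay under the intron percentile on every total liver array, and Vcam1 under it on CSAA in both preparations, so for these 4 the values do not order the changes in RNA. Nfkbia lay above it on every array but hepatocyte CSAA replicate 2, and its call was lost under 10 of 21 alternatives.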

How the results depend on the processing

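The count of 6 members called in total liver was 4 to 9 under the alternatives that kept all arrays of the contrast, and 2 to 7 with 1 array left out. The hepatocyte count of 7 was 4 with the 2 groups alone, 12 (11 higher, 1 lower) after joint quantile normalization, which called 11.5% of all probe sets higher and 10.3% lower, and 7 to 8 with 1 array left out. The count of 1 for the difference between preparations was 2, with Tnfrsf11b added, after joint quantile normalization and with the replicate block, and 1 to 2 with 1 array left out. Same-numbered arrays did not deviate together in total liver (correlations of -0.126 to 0.0152) and did in 2 of 3 hepatocyte pairs (0.346, -0.211 and 0.262), so the numbers were not taken to pair the samples. With the block 5 members were called in total liver and 7 in hepatocytes, all higher. It called 6.87% of all probe sets higher and 3.11% lower in total liver, and 11.4% and 7.91% in hepatocytes. The total liver calls of Tnfrsf19, Bid and Xiap were lost with the block. Members above the introns changed with the percentile: at the 90th there were 2 in CSAA hepatocytes and 5 in CDAA hepatocytes, at the 99th 0 in all 4 groups, and by group means 5 in CDAA hepatocytes. With 1 array left out these counts were 1 in CSAA hepatocytes, 3 to 4 in CDAA hepatocytes, 1 in CSAA total liver and 2 to 3 in CDAA total liver. Bid in hepatocytes, not called at 0.12, was -0.041 after centring, -0.091 without CSAA replicate 1, -0.032 without CDAA replicate 2 and -0.091 to 0.43 over all arrays left out in turn. Centring moved the median of all probe sets by -0.14 in total liver and -0.16 in hepatocytes. Where no alternative's own construction shows a cause, the cause was not tested. With 3 or 4 arrays per group and 24 members under the introns, small differences were not detectable here.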
